A study of Mus musculus with 2 samples.

Results

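The 9 keratin genes of squamous and mucosal epithelia described here are Krt1, Krt4, Krt6a, Krt6b, Krt10, Krt13, Krt16, Krt76 and Krt78. They were picked by name, as the non-control spots of both arrays that carry these gene symbols, and every probe of each gene was kept. They had 13 of the 39429 probes and made up 9 of its 29923 gene names. Of the 9 genes, 8 were well above background in all 4 RNA pools and entered the test. Krt76 was not well above background in any pool.

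Keratins form the intermediate filaments of epithelial cells, and each filament needs a type I and a type II partner. Krt4 and Krt13 are the partners of the upper layers of wet, non-cornified mucosa such as the oesophagus, Krt1 and Krt10 are those of the upper epidermis, and Krt6a, Krt6b and Krt16 appear in skin appendages and in epithelium under stress or repair. Krt76 is known from the palate and Krt78 from the upper layers of stratified epithelia. The urothelium is built of basal, intermediate and superficial cells, and it takes on squamous keratins when it undergoes squamous metaplasia.

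Ureters of NMRI mouse embryos at E18.5 were pooled by genotype and sex, and RNA of a Pparg-cKO pool and a control pool was hybridised together on each of 2 two-colour arrays. The Pparg-cKO embryos were Pax2-cre/+; Pparg(fl/fl), the floxed stretch spanning exons 2 and 3, and Pax2-cre is active in the nephric duct and the epithelia that arise from it. The controls are labelled Pparg(fl/?), so that their second allele is not stated, and were cre-negative littermates. Female pools were paired on replicate 1 and male pools on replicate 2, where the dyes were swapped, so that sex, dye orientation and array cannot be told apart.

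The direction of the ratios was in conflict between 2 sources. The deposited ratios, titled as Pparg-cKO against control, ran opposite to the dye labels on both arrays, with a Pearson correlation across probes to log2 of red over green of 0.905 for the female pools and -0.932 for the male pools. Here higher, lower, rose and fell follow the deposited ratios, and "Pparg-cKO pool" means the pool they place on top. The study's text, and its tissue sections for other genes, describe gene changes in that same direction. Of the present set, its sections showed no KRT6 or KRT10 protein in the urothelium of either genotype. Its RT-qPCR of cultured explants did not detect Krt6b. Should the dye labels hold instead, all these words are exchanged, while sizes, total counts and p-values stay. On the arrays alone the targeted gene does not settle it. The Pparg probe, at chr6:115440213-115440272 (mm9), was not placed relative to exons 2 and 3, and the female pools gave signals of 12357 and 6113 and the male pools 12930 and 6688, the Pparg-cKO pool first. In the study's sections at E18.5, a 3'-UTR probe showed more of a Pparg transcript without exons 2 and 3 in the mutant. Whether the array probe reads that transcript was not tested. Spots well above background made up 66.2% to 77.3% of the 4 channels, and no spot was saturated.

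The tissue label was set against its markers. All 10 urothelium markers and all 5 ureter smooth muscle markers were measured well enough to be tested. In bulk RNA, more cells of a type and more RNA per cell cannot be told apart.

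The probes below carry the findings: those of Krt4, Krt6a and the first of Krt6b gave the largest rises, the second Krt6b probe gave a much smaller one, and those of Krt78 read nearly the same stretch. All lie on the minus strand of chromosome 15 (mm9). Whole 60-base probes are given for Krt4, the first Krt6b probe and Krt78, and the first 30 bases for the other 2. Capitals mark the 50 bases that both Krt78 probes share.
Krt4, chr15:101750158-101750736: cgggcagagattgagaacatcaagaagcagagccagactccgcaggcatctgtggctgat
Krt6a, chr15:101520862-101520921: agcaagaagagctacaggcagtgaattctg
Krt6b, chr15:101509450-101509509: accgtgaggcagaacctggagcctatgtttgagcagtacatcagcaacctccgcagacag
Krt6b second probe, chr15:101506492-101506551: cttgtgacaacacagtcattagtcctgtgc
Krt78, chr15:101776599-101776658: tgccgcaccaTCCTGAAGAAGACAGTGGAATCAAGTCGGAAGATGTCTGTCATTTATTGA
Krt78 second probe, chr15:101776589-101776648: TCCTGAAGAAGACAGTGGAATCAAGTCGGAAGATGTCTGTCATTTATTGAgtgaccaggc
The Krt4 probe maps to a span of 579 bases, longer than the probe itself. No member probe shared a run of more than 14 bases on the same strand with a probe of another gene. Exon and UTR positions, and matches to transcripts of paralogues that have no such probe, were not analysed here, so that Krt6a and Krt6b, which are near-identical genes, remain uncertain as separate readings.

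Krt4, Krt6a, Krt6b and Krt78 rose in Pparg-cKO ureters, between 2.40-fold and 5.78-fold. Krt1, Krt10, Krt13 and Krt16 did not pass the test. Limma called 4 of the 8 tested members as higher and 0 as lower, at a Benjamini-Hochberg adjusted p under 0.05 over 22500 genes. Over all these genes limma called 87 as higher, or 0.387%, and 81 as lower, or 0.36%. A fold rule, set here after the intensity and fold thresholds of the study's methods, asks for at least 1.5-fold in the same direction on both arrays and a signal of at least 100 in the brighter pool of each. It was met by 3 of the 6 members that were bright enough, all higher, against 111 higher (0.792%) and 147 lower (1.05%) of 14016 bright genes. At an unadjusted p under 0.05 the members' counts in limma were the same, 4 higher and 0 lower, against 1906 of all 22500 genes in either direction, the background for all unadjusted counts given here. Fitted to the authors' deposited ratios, limma called none of Krt4, Krt6a, Krt6b and Krt78 (adjusted p = 0.532 for each) and no other gene, with 2109 genes at an unadjusted p under 0.05, while the log2 ratios of these 4 ran from 1.41 to 3.27. The median log2 ratio of the 8 tested members was 0.80, against 0.01 over all genes tested. The members' median was 0.65 in the female pair and 1.05 in the male pair. On both arrays 7 of the 8 tested members were higher and 0 lower, against 5998 higher and 5852 lower of all 22500 genes.

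**Figure D1:**
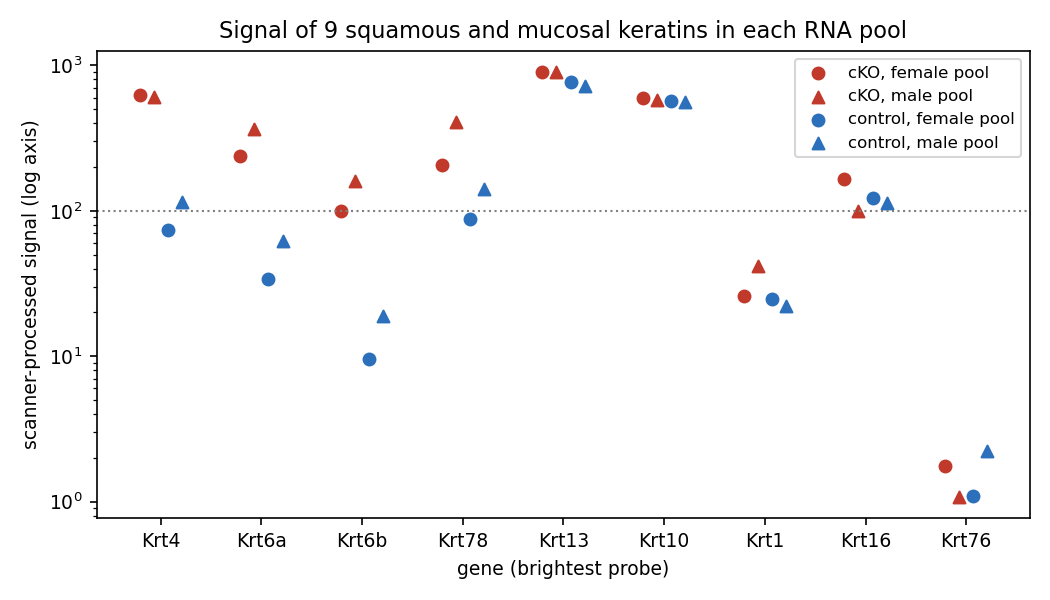
Scanner-processed signal (log axis) of the brightest probe of each of the 9 genes, with 1 point for each of the 4 RNA pools (red Pparg-cKO, blue control, circles female, triangles male) and a dotted line at the brightness limit of 100. The points of Krt4, Krt6a, Krt6b and Krt78 lie furthest apart by genotype. For Krt13, Krt10 and Krt1 the Pparg-cKO points were also above the control points on both arrays, by less, and those of Krt10 lie between 563 and 595. Heights are not comparable between genes, since probes differ.

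Krt4, the type II keratin of wet mucosa, gave the largest rise of the 9 genes in the main setting. Krt6b rose more with scanner-processed signals (log2 ratios of 3.24 against 2.74), without an offset (2.73 against 2.66), with the deposited ratios (3.27 against 2.72) and on the male array alone (2.31 against 2.25). The processed signal of Krt4 was 623 in the female and 605 in the male Pparg-cKO pool, and 73.3 in the female and 116 in the male control pool. Both Pparg-cKO pools lay far above both control pools, and the spot-to-spot SD was at most 30.1 in any pool. The female pair gave a log2 ratio of 2.81 and the male pair 2.25, a mean of 2.53 ± 0.39 (SD, n = 2 arrays) or 5.78-fold (adjusted p = 0.00946, limma). Krt4 ranked 7th of the 22500 tested genes by mean rise.

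Krt6a, a type II keratin of hair follicles, nail, tongue and wounded epidermis, rose 4.95-fold. The processed signal was 238 in the female and 366 in the male Pparg-cKO pool against 34.0 and 61.8 in the control pools. The pools of either genotype did not overlap, and the male pools were the brighter on both sides. The log2 ratio was almost equal on the 2 arrays, 2.312 and 2.303, with a mean of 2.31 ± 0.0063 (SD, n = 2 arrays; adjusted p = 0.00632, limma). Krt6a ranked 12th by mean rise.

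Krt6b, the neighbouring keratin gene with a closely related product, rose 4.47-fold on its brighter probe. The processed signal of that probe was 99.9 in the female and 160 in the male Pparg-cKO pool, against 9.59 and 18.8 in the control pools. Its log2 ratio averaged 2.16 ± 0.21 (SD, n = 2 arrays; adjusted p = 0.00782, limma), from 2.02 in the female pair and 2.31 in the male pair. This gene ranked 17th by mean rise, and it missed the fold rule as set here because its signal of 99.9 on the female array was under the limit of 100. Other background settings gave a larger rise for this dim probe, with a log2 ratio of 2.73 by normexp without the offset and of 3.24, or 9.42-fold, by scanner-processed signals.

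The second Krt6b probe read a much smaller difference. Its processed signal was 12.4 in the female and 17.7 in the male Pparg-cKO pool and 7.47 and 7.86 in the control pools. It was higher in both Pparg-cKO pools, with a mean log2 ratio of 0.37 ± 0.19 (SD, n = 2 arrays; adjusted p = 0.480, limma over all probes). With scanner-processed signals this probe gave 1.94-fold, so that the probes of Krt6b differed in size and not in direction. With the median over its probes in place of the brighter one, the log2 ratio of Krt6b was 1.27.

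Krt78, a type II keratin of suprabasal cells, rose 2.40-fold. The processed signal was 205 in the female and 407 in the male Pparg-cKO pool against 87.2 and 140 in the control pools. Each Pparg-cKO pool was the brighter one of its array, and the lowest Pparg-cKO value lay above the highest control value. Its log2 ratio averaged 1.26 ± 0.30 (SD, n = 2 arrays; adjusted p = 0.0417, limma), with 1.05 for the female and 1.47 for the male pair. The second probe, which shares 50 of 60 bases with the first and is no independent reading, gave 142 and 314 against 64.1 and 109, a mean log2 ratio of 1.18 ± 0.40 (SD, n = 2 arrays; adjusted p = 0.0676, limma over all probes). Beside the deposited table, the call of Krt78 was also lost with the median over the probes (adjusted p = 0.0537) and with no filter on dim probes (adjusted p = 0.102).

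Krt13, the type I partner of Krt4 in mucosa, did not pass the test. Its processed signal was 901 in the female and 894 in the male Pparg-cKO pool, against 764 and 721 in the control pools. Both Pparg-cKO pools were the brighter, by little, with a log2 ratio averaging 0.26 ± 0.20 (SD, n = 2 arrays; adjusted p = 0.669, limma). A dimmer second probe gave 29.5 and 28.0 against 17.7 and 13.4, or a mean log2 ratio of 0.46 ± 0.13 (SD, n = 2 arrays; adjusted p = 0.284, limma over all probes). These Krt13 probes lie at chr11:99982471-99982530 and chr11:99980412-99980471.

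Krt10 and Krt1, the pair of the upper epidermis, did not pass the test either. The processed signal of Krt10 was 595 in the female and 578 in the male Pparg-cKO pool and 565 and 563 in the control pools. These 4 values differed by less than the SD of the spots, which ran from 40.2 to 54.9, and the mean log2 ratio was 0.07 (adjusted p = 0.940, limma). A dimmer second Krt10 probe read 60.1 and 70.3 against 46.1 and 42.2, with log2 ratios of 0.29 and 0.63 and an adjusted p of 0.367 in limma over all probes. Krt1 was dim, with 25.7 in the female and 41.5 in the male Pparg-cKO pool against 24.7 and 22.1. Its pools were nearly equal for females and apart for males (log2 ratios of 0.04 and 0.63; adjusted p = 0.698, limma).

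Krt16, the usual type I partner of Krt6 in stressed epithelium, showed no common direction. The processed signal was 165 in the female and 100.3 in the male Pparg-cKO pool and 122 and 112 in the control pools. The female Pparg-cKO value was the highest and the male one the lowest of the 4, and the 4 spots behind the female one had an SD of 44.1. The log2 ratios were 0.25 and -0.05 (adjusted p = 0.926, limma). Krt76 gave processed signals of 1.76 and 1.08 in the Pparg-cKO pools and 1.08 and 2.22 in the control pools, none of them well above background, so that no ratio is given. The probes of Krt16 and Krt76 lie at chr11:100107408-100107467 and chr15:101715054-101715113, that of Krt1 at chr15:101676107-101676166, and those of Krt10 at chr11:99246538-99246558 and chr11:99247846-99247905 (mm9).

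**Figure D2:**
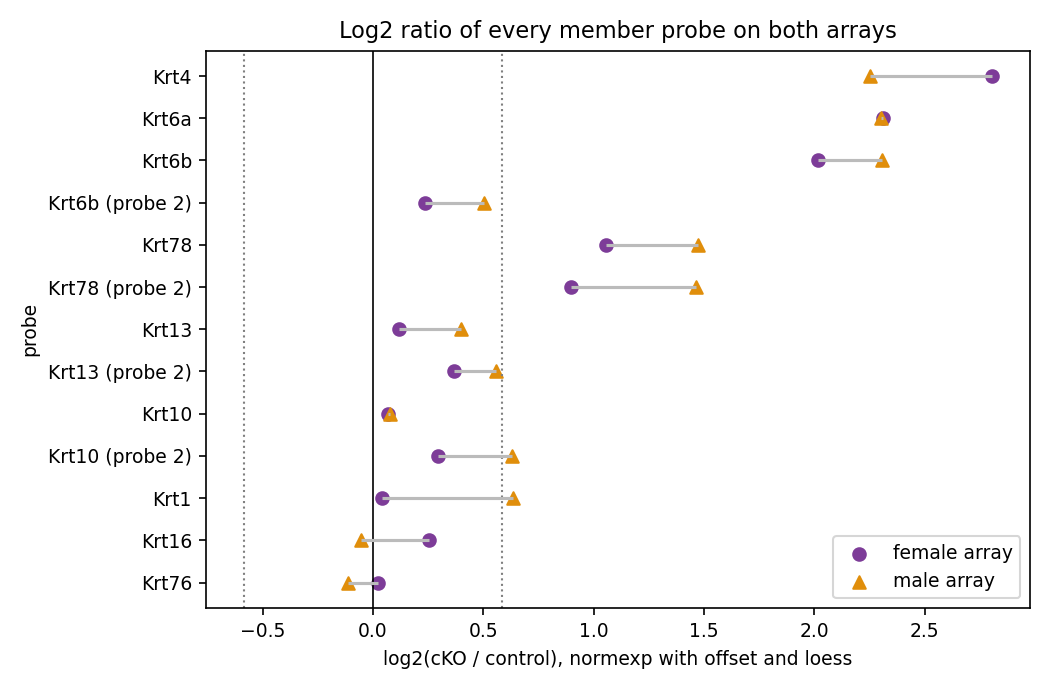
Log2 ratio of Pparg-cKO over control for all 13 probes (circles female array, triangles male array, grey line joining both), with dotted lines at 1.5-fold. Krt4, Krt6a, the first Krt6b probe and both overlapping Krt78 probes lie past 1.5-fold on both arrays, and the second Krt6b probe at 0.24 and 0.50 does not.

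All called members were type II keratins, and no type I member was called. Limma called 4 of the 5 tested members on chromosome 15 and 0 of the 3 on chromosome 11, where it called 0.387% of all tested genes as higher. This split describes the 9 picked genes only. Of the other keratins on chromosome 11, the type I genes Krt14 and Krt15 were called higher and Krt20 lower. In RefSeq gene order (GRCm38.p6), where all 9 symbols were found, Krt6b and Krt6a are neighbours among the keratin genes. Krt75, a type II keratin of the hair follicle companion layer, lies next to Krt6b and also rose. Its processed signal was 70.1 and 107.1 in the female and male Pparg-cKO pools against 23.0 and 26.5 in the control pools, or 2.47-fold (adjusted p = 0.0380, limma). Krt5 on the other side of Krt6a did not share this direction. Krt79 lies between Krt4 and Krt78, and its mean log2 ratio was 0.18 (adjusted p = 0.779, limma).

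Among the other keratins, those of the basal layer come first, since cells of that layer give rise to those that make squamous keratins. Limma called 3 of the 29 other keratin genes tested as higher and 1 as lower, and their median log2 ratio was 0.09. The type I basal keratin Krt15 had signals of 1940 and 2309 against 889 and 1026, or 2.26-fold (adjusted p = 0.0225, limma). Krt14, the main type I basal keratin, had 1335 and 1489 against 631 and 773, or 2.01-fold (adjusted p = 0.0428, limma). Krt17, a type I keratin of stressed epithelium that can pair with Krt6, had 27.9 and 34.9 against 8.04 and 10.5, with a mean log2 ratio of 0.84 (adjusted p = 0.0611, limma).

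Krt5, the type II partner of Krt14, went opposite ways on the arrays, with 1275 against 2315 in the female pair and 2542 against 2049 in the male pair. Krt19, Krt23 and Krt42 met the fold rule at 2.00-fold, 1.99-fold and 1.81-fold higher without a limma call (adjusted p of 0.126, 0.0794 and 0.115). Krt20, the keratin of superficial urothelial cells, fell by 3.09 on the log2 scale, from 1557 and 1407 in the control pools to 168 and 144 (adjusted p = 0.00632, limma). None of the 11 tested of 23 hair and root sheath keratins was called in limma or met the fold rule, and 2 had an unadjusted p under 0.05.

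**Figure D3:**
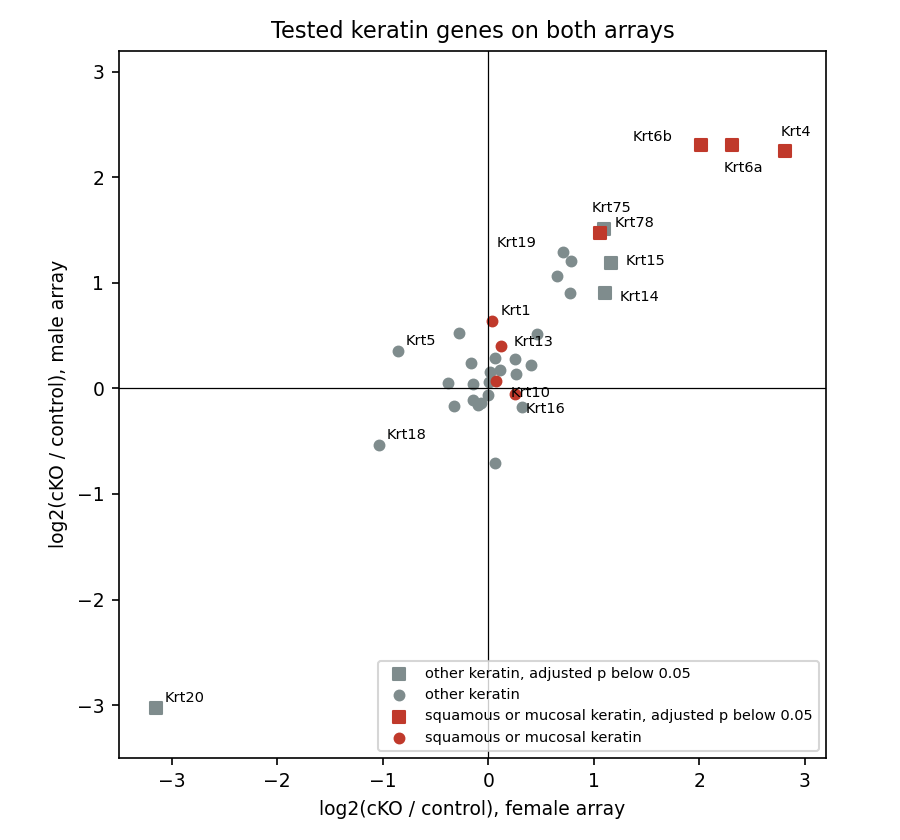
Log2 ratio on the female array (x axis) against the male array (y axis) for every tested keratin gene, with the 8 squamous and mucosal genes in red and squares for an adjusted p below 0.05 in limma. Krt4, Krt6a and Krt6b stand apart at the upper right, Krt78 lies beside Krt75, and Krt10, Krt13 and Krt16 lie near the origin. Krt1 lies at 0.04 and 0.63. Krt20 is at the lower left.

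Genes of squamous differentiation beyond the keratins were read as a list. Of 21 listed genes of squamous differentiation, among them genes of the cornified envelope and its cross-links, 20 had a probe and 14 were tested. Limma called 0 of these as higher, where the share over all genes was 0.387%, and 1 as lower, the fold rule gave the same counts, 2 genes each way had an unadjusted p under 0.05, and the median log2 ratio was 0.01. That gene was Ivl, which encodes involucrin, an envelope precursor that superficial urothelium also makes. It had 324 and 403 against 1279 and 1306, and it fell by 1.77 on the log2 scale (adjusted p = 0.0122, limma). Lor, the loricrin gene of the epidermal granular layer, had 76.6 and 142 against 27.3 and 29.4, with log2 ratios of 1.14 and 1.82 that did not pass the test (adjusted p = 0.0597, limma). Rptn, for repetin, had a mean log2 ratio of -0.59 (adjusted p = 0.156, limma).

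Desmosomes anchor keratin filaments at cell contacts, hemidesmosomes anchor them at the basement membrane, and 12 of 13 listed genes for parts of either and for keratin linkers were tested, with a median log2 ratio of 0.63. That median was 0.24 in the female pair and 0.82 in the male pair. At an unadjusted p under 0.05, 7 of the 12 were higher and 0 lower. After adjustment limma called 1 of them, Dsc2, a desmosomal cadherin, which had 1455 and 1454 against 676 and 702 and rose 2.15-fold (adjusted p = 0.0271). Pkp1, a plakophilin of stratified epithelia, met the fold rule at 2.75-fold, with 380 and 678 against 159 and 191 (adjusted p = 0.0705, limma). Dsp, for desmoplakin, which binds the filaments, had a log2 ratio of 0.32 in the female pair and 1.89 in the male pair. Of 12 listed transcription factors of stratified epithelium 10 were tested and 0 were called in limma or met the fold rule, with 2 at an unadjusted p under 0.05, Klf4 and Trp63. The largest mean log2 ratios among them were -0.48 for Trp63, the master regulator of stratified epithelia, 0.45 for Klf4 and 0.25 for Pitx1.

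Markers of other tissues that could bring in these keratins were read over whole lists. Of 10 epidermis markers 9 had a probe and 6 were tested, and none was called in limma or met the fold rule, with 2 higher and 1 lower at an unadjusted p under 0.05. Their summed signal was 820 and 577 in the female and male Pparg-cKO pools and 518 and 543 in the control pools. Most of that sum came from Krtdap, with 668 and 368 against 423 and 434. Flg2, Hrnr and Dsg1a were not well above background in any pool. In the urothelium list 4 of 10 markers met the fold rule as lower and limma called 2 of them, Krt20 and Upk3b, with sums of 53323 and 62436 against 86597 and 76022. At an unadjusted p under 0.05, 6 of the 10 were lower and 2 were higher, Foxa1 and Elf3, with mean log2 ratios of 0.61 and 0.46.

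Of 6 collecting duct markers 1 was called, Fxyd4, with 536 and 596 against 77.4 and 109. The list's sums were 720 and 824 against 241 and 266, and Fxyd4 made up most of them in the Pparg-cKO pools. At an unadjusted p under 0.05, 2 of the 6 were higher and 0 lower, the other being Scnn1b, with 126 and 162 against 95.4 and 91.8. Aqp2, the defining water channel of that duct, had 23.9 and 21.8 against 28.1 and 25.8. Of 5 mesothelium markers 4 had a probe and 3 were tested. Msln was called higher and Upk3b lower, with sums of 3986 and 5136 against 2154 and 2137 that rest mostly on Msln in the Pparg-cKO pools (3085 and 4384 against 514 and 726), while Wt1 of that list had a mean log2 ratio of -0.09. Lrrn4, measured but too dim to be tested, had log2 ratios of 0.85 in the female pair and 0.09 in the male pair. Of 6 testis markers 5 had a probe and 1 was called higher, Prm1, a sperm protamine, with 359 and 606 against 17.7 and 20.4. The other 4 testis genes measured, Prm2, Tnp1, Sox9 and Cyp17a1, had mean log2 ratios from -0.10 to 0.03. The sums over that list, 1018 and 1269 against 647 and 711, therefore differ through Prm1. The smooth muscle, kidney tubule, liver and blood lists held no limma call, and 2 of their 17 tested genes had an unadjusted p under 0.05. The part of these lists in the keratin ratios was not tested.

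The genes whose ratios on the 2 arrays lay nearest to those of Krt4, by Euclidean distance over both log2 ratios, were Rnf186 (0.13), Fxyd4 (0.28), a transcript known by its Ensembl number only (0.38), Arhgef38 (0.49) and Msln (0.50). These distances rest on 2 arrays and describe like sizes of change only.

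**Figure D4:**
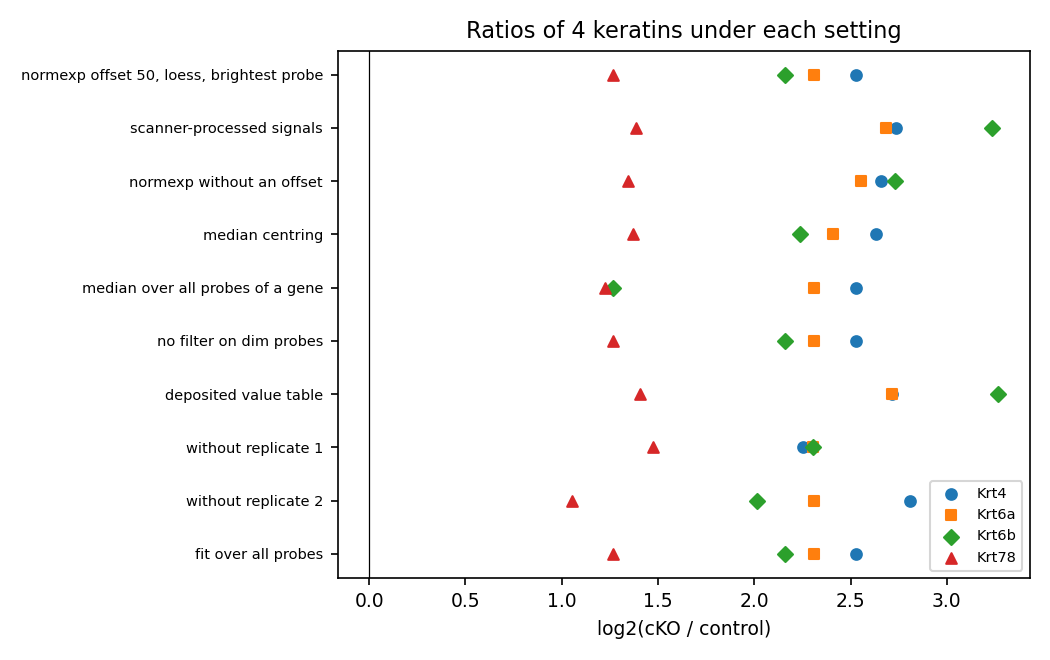
Log2 ratio of Krt4, Krt6a, Krt6b and Krt78 under the main setting (top) and the other settings in the direction of the deposited ratios. All 4 genes stayed above 1.05 under every setting shown, and Krt6b ranged most, from 1.27 with the median over its probes to 3.27 with the deposited table.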

How the data were processed

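Per the file headers, the scanner files (Agilent Feature Extraction 10.7.3.1, mm9 probe positions) held spot intensity on a linear scale: mean signal, median background and a processed signal corrected for background and dye. Per the file headers they also held a log10 ratio of red over green processed signals, which was not used. The authors also deposited 1 table of signed fold ratios per probe (a score: falls carry a minus sign), used as an alternative and for the direction. Signals were corrected with normexp (offset 50), normalised by loess within arrays without control spots and outliers (2.87% and 3.24% of spots), and averaged over the 4 spots of a probe. The brightest probe stood for a gene. limma 3.58.1 in R 4.3.3 tested the mean of 2 ratios two-sided, over genes well above background in at least 1 pool of each array (at least a share of 0.5 of its spots), with a residual of 1 degree of freedom per gene and a prior of 3.97. The test was first run on simulated data drawn from its own fitted spread, which cannot show effects of dye, sex or array. The number of arrays limits the precision, and each group had 1 pool per array. Pools are separate by sex, and p-values rest only on the spread between these 2 arrays, a gene's own spread being drawn toward one pooled over all tested genes. Probe positions were taken as deposited.

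The members and gene lists were chosen with earlier results of these data known. Named genes were all members, other keratins called or past the fold rule with Krt5, Krt14, Krt15, Krt17 and Krt20, and in 3 further lists the called genes or the 3 largest ratios. Krt79 and the marker genes Aqp2, Scnn1b, Krtdap, Dsc1, Lce1a1, Wt1, Lrrn4, Foxa1, Elf3 and the testis genes were chosen after their values were seen.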

Additional observations from a re-analysis of the deposited data

Results flagged for a closer look

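Krt5, the basal type II keratin, was lower in the Pparg-cKO pool on the female array (log2 ratio of -0.86) and higher on the male array (0.35). The male minus female log2 ratio was 1.21. Both sizes were past 1.2-fold, the least size looked for among the named genes, and a test of the difference was not run, with 1 array for each sex. None of the 9 squamous and mucosal keratins differed in this way.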

How the results depend on the processing

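Direction by the dye labels reversed every ratio: the median of the 8 tested members became -0.80, and the log2 ratios became -2.53 for Krt4, -2.31 for Krt6a, -2.16 for Krt6b, -1.26 for Krt78, -0.34 for Krt1, -0.26 for Krt13, -0.10 for Krt16 and -0.072 for Krt10. With the deposited table limma called 0 members and 0 of all 22500 genes, with 2109 at an unadjusted p under 0.05; the adjusted p of Krt4, Krt6a, Krt6b and Krt78 was then 0.532, while their ratios ran from 1.41 to 3.27 and 3 members met the fold rule. The cause was not tested. The median moved to 0.34 with no filter on dim probes, which adds Krt76, and to 0.46 over 12 probes, which adds second probes. Limma called 3 members with the median over probes or with no filter, and 4 with scanner-processed signals, no offset, median centring or a fit over all probes. Over all genes it called 504 without an offset and 89 with no filter, against 168. On a single array, 3 or 4 members met the fold rule, signal limit included, and the median lay between 0.65 and 1.05. Each ratio is already a pair of same-sex pools on its array, so that no further replicate block was fitted. Depth here is signal over background: Krt6b in controls (9.59 and 18.8), Krt1 and the second probes of Krt6b and Krt13 were dim, and the offset of 50 shrinks their ratios.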
